A study of Mus musculus with 21 samples.

Results

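The axoneme is the microtubule core of the sperm tail. RNA of 48 genes named for its proteins or their assembly, called axoneme genes here, was measured among the 24456 genes counted in fractionated mouse spermatogenic cells. The 48 genes were chosen by symbol alone: every gene whose name begins with *Cfap*, *Dnah*, *Dnaic*, *Dnaaf*, *Rsph*, *Tekt* or *Drc* followed by a digit. They comprise 11 dynein heavy chains, 2 dynein intermediate chains, 4 dynein assembly factors, 8 radial spoke genes, 2 genes of the nexin-dynein regulatory complex, 5 tektins and 16 further CFAP (cilia and flagella associated protein) genes. All 48 are protein-coding genes on autosomes, spread over 16 chromosomes. A low-count filter left 47 of them in every test, and *Rsph4a* was the member that did not pass.

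The 21 libraries came from cell fractions labelled as testis. Pachytene spermatocytes (meiotic cells), round spermatids and condensing spermatids each had 3 wild-type (WT) and 3 *H2al2* KO libraries, and spermatozoa had 2 WT libraries and 1 *H2al2* KO library. H2A.L.2 is a histone H2A variant of the testis, and the series compared cells with and without it. The labels name no strain, age, allele or fractionation purity, and they do not say that replicates came from separate mice. The WT round spermatid transcriptomes are described in the study as biological replicates, but WT round replicates 2 and 3 were unusually alike, as given below. In every group the p-values measure the spread between libraries, which may be technical.

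In a motile flagellum, dynein motors are fixed in rows, the outer and inner arms, along doublet microtubules and slide neighbouring doublets against each other. Radial spokes and the central apparatus regulate the motors, the nexin-dynein regulatory complex ties doublets together, and tektins and other microtubule inner proteins line the doublets from inside. Spermatids build this structure after meiosis, from dyneins that assembly factors put together in the cytoplasm.

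Counts on genes ranged from 2772995 to 8201682 per library, with a median of 6872271. Levels are given as normalized CPM, counts scaled to library depth with TMM factors over the 21 libraries, and comparisons between genes use CPM per kb of transcript. *H2afb1*, the gene of H2A.L.2, was at 14.5 to 40.8 CPM in WT pachytene spermatocytes and 3.16 to 4.92 in the KO, at 201 to 211 and 20.7 to 25.4 in round spermatids, and at 160 to 250 and 26.5 to 35.7 in condensing spermatids. All KO libraries were below all WT libraries of their stage. The log2 fold change was -3.10 ± 0.10 (SE) in round and -2.71 ± 0.17 in condensing spermatids (adjusted p = 3.40e-08 and 9.54e-07), but in pachytene spermatocytes the same gene missed the threshold (-2.75 ± 0.37, adjusted p = 0.484). WT round spermatid replicates 2 and 3 were closer to each other than any other pair. Over genes with 100 to 1000 summed counts their mean chi-square was 1.06, against 1.90 to 12.2 for the other pairs. Over genes above 10000 counts it was 8.76, against 65.9 to 593 for the other pairs. They were kept as 2 libraries, and their sum was run as an alternative. In bulk fractions, fewer cells of a type and less RNA per cell cannot be told apart.

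All but 1 of the 48 genes had counts in every library, so the axoneme was represented in each stage, and the stages differed in how much. The 48 genes together took 2.06% to 2.37% of all counts on genes in WT pachytene spermatocytes, 1.37% to 1.45% in WT round spermatids, 0.979% to 1.26% in WT condensing spermatids and 0.454% to 0.468% in WT spermatozoa. These ranges did not overlap between any pair of stages. In each library but the KO spermatozoa, the most counts came from *Dnah8*, an outer arm heavy chain of the sperm flagellum with a transcript of 16.7 kb.

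**Figure D1:**
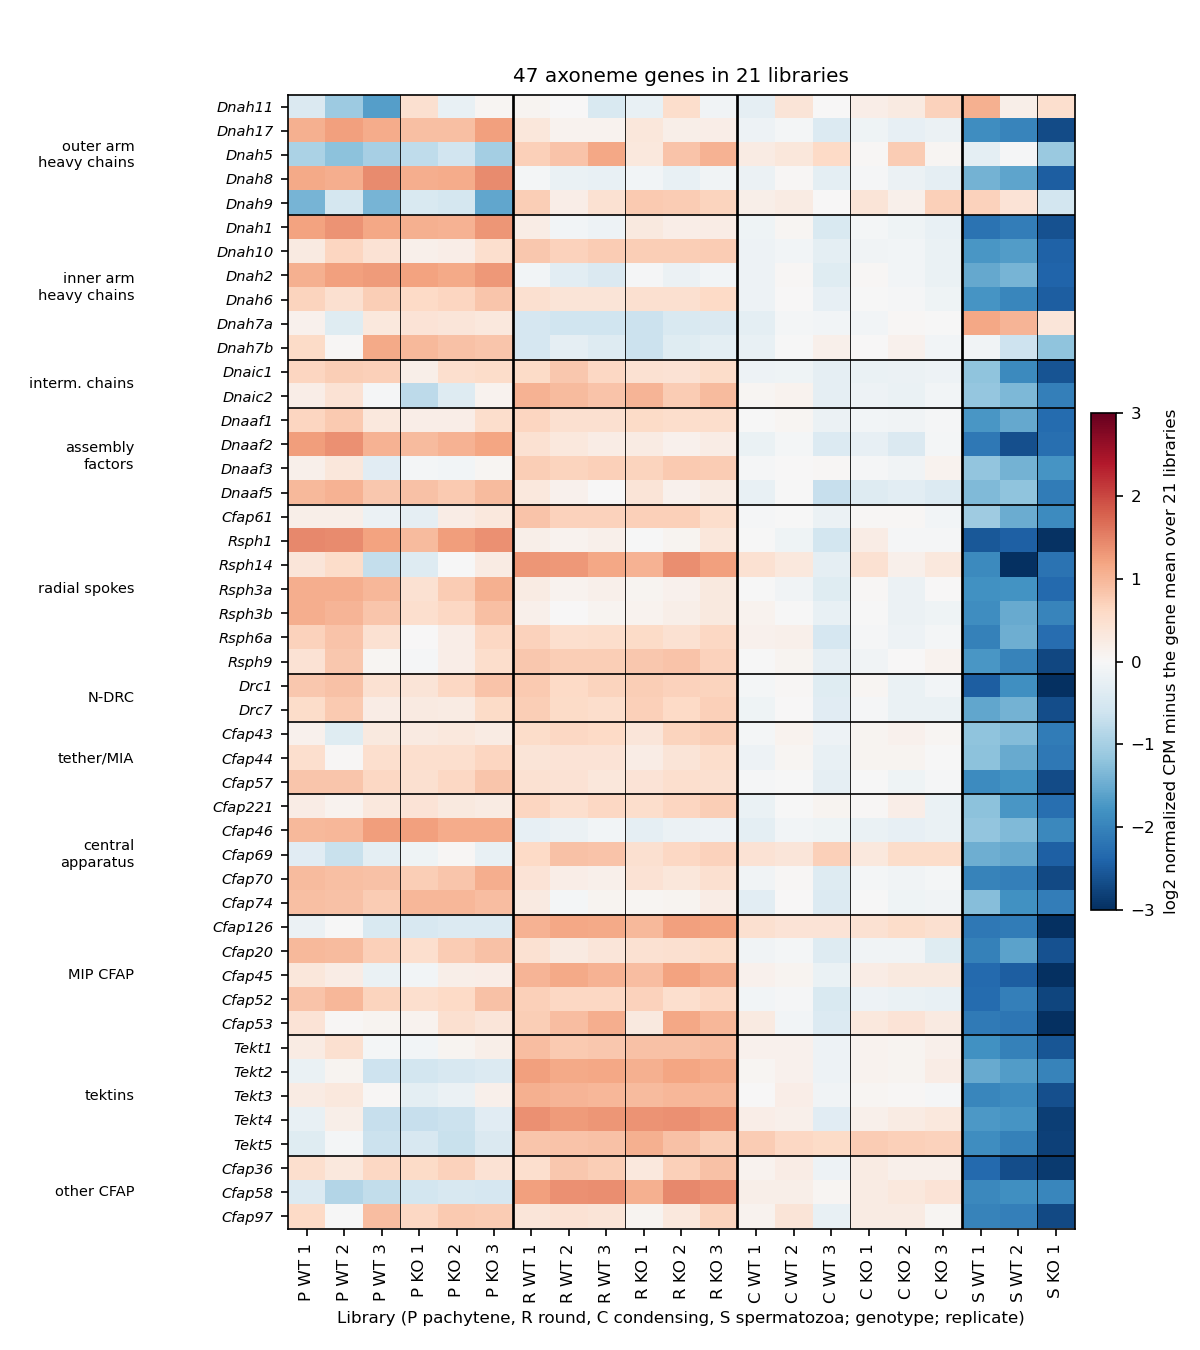
Colour gives log2 normalized CPM of each of the 47 tested genes (rows, grouped by role) minus the mean of that gene over the 21 libraries (columns), and colours stop at a difference of 3 in either direction. Tektins are reddest in round spermatids, many heavy chains and *Rsph1* in pachytene spermatocytes, and spermatozoa are blue for most genes but not for *Dnah7a*.

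Read per kb, the order of the members was different from the order by counts. In WT pachytene spermatocytes the radial spoke head gene *Rsph1* was highest, at 1150 ± 97.3 CPM per kb (SD, n = 3), followed by the dynein assembly factor *Dnaaf1* at 404 ± 64.0 and *Dnah8* at 394 ± 48.6, which did not differ beyond their spread. *Rsph1* was still highest in WT round spermatids at 499 ± 10.8 CPM per kb, with *Dnaaf1* at 389 ± 24.3. *Dnah8* held 7.29% to 9.93% of the members' summed CPM per kb in WT pachytene spermatocytes, 3.22% to 3.55% in WT round spermatids and 4.85% to 5.48% in WT condensing spermatids. At the other end of the scale were the genes of ciliary heavy chains and spoke heads.

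Among genes with a flagellar and a ciliary form, the flagellar form carried nearly all of the RNA. *Dnah8* and *Dnah17*, the outer arm heavy chains of sperm, summed to 525 CPM per kb in WT pachytene spermatocytes, against 0.656 for *Dnah5*, *Dnah9* and *Dnah11*, the outer arm heavy chains of motile cilia. The ratio of these sums was 800 in WT pachytene spermatocytes, 107 in WT round spermatids, 129 in WT condensing spermatids and 43.8 in WT spermatozoa. The radial spoke head pair showed the same contrast. *Rsph6a*, the sperm paralog, was at 109 ± 14.2 CPM per kb in WT pachytene spermatocytes and 102 ± 7.16 in WT round spermatids, whereas *Rsph4a*, its paralog in motile cilia, was at 0.357 ± 0.0937 and 0.177 ± 0.0550. *Rsph4a* never passed 1.68 CPM, and it was at 0 in WT condensing spermatid replicate 1, KO condensing spermatid replicate 1 and WT spermatozoa replicate 2, where a count of 0 allows up to 3 counts of the total. Of the 7 genes measured from a list for multiciliated duct cells, *Mcidas* was at 0 to 0.291 CPM and *Cdhr3* at 0 in every WT library, and *Scgb1a1* was at 0 in each WT library but 1, at 0.347. The same list holds *Tubb4b*, which spermatids also express, at 862 to 1380 CPM in the 9 WT libraries before spermatozoa, and *Foxj1*, at 22.9 to 188. Its other genes were at low levels in every WT library, *Ccno* at 1.32 to 12.8 CPM with the highest values in spermatozoa, and *Tppp3* at 2.05 to 10.9.

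Between WT pachytene spermatocytes and WT round spermatids, the axoneme genes split. Of 47 tested, 20 were higher in round spermatids (42.6%) and 16 were lower (34.0%), with edgeR's quasi-likelihood test and Benjamini-Hochberg adjustment over 14011 genes at 0.05. Of all genes tested, 34.4% were higher and 35.9% lower, so the shares of axoneme genes lay near the background in both directions. The median log2 fold change was 0.07 over the members and -0.02 over all genes. With library size as the only scaling, the median of all genes moved to -0.20 and the split became 16 higher and 18 lower. The roles, however, did not split evenly.

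The tektins, filament proteins inside the doublet microtubules, rose as a group, 5 of 5. *Tekt4* was at 114, 150 and 82.6 CPM in the WT pachytene libraries and at 346, 322 and 332 in the WT round libraries. Every round library was more than 2-fold above every pachytene library, and the log2 fold change was 1.56 ± 0.19 (SE, adjusted p = 9.61e-06). *Tekt2* went from 181, 219 and 135 to 487, 457 and 460 CPM (log2 fold change 1.43 ± 0.16, adjusted p = 3.41e-06). *Tekt5*, a tektin found mainly in sperm, went from 62.8, 77.8 and 52.2 to 144, 148 and 149 CPM (1.23 ± 0.14, adjusted p = 3.62e-06). The round libraries were tightly grouped for both genes while the pachytene libraries were spread. *Tekt3* (0.85 ± 0.12) and *Tekt1* (0.64 ± 0.14) rose by less, without overlap between the stages.

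**Figure D2:**
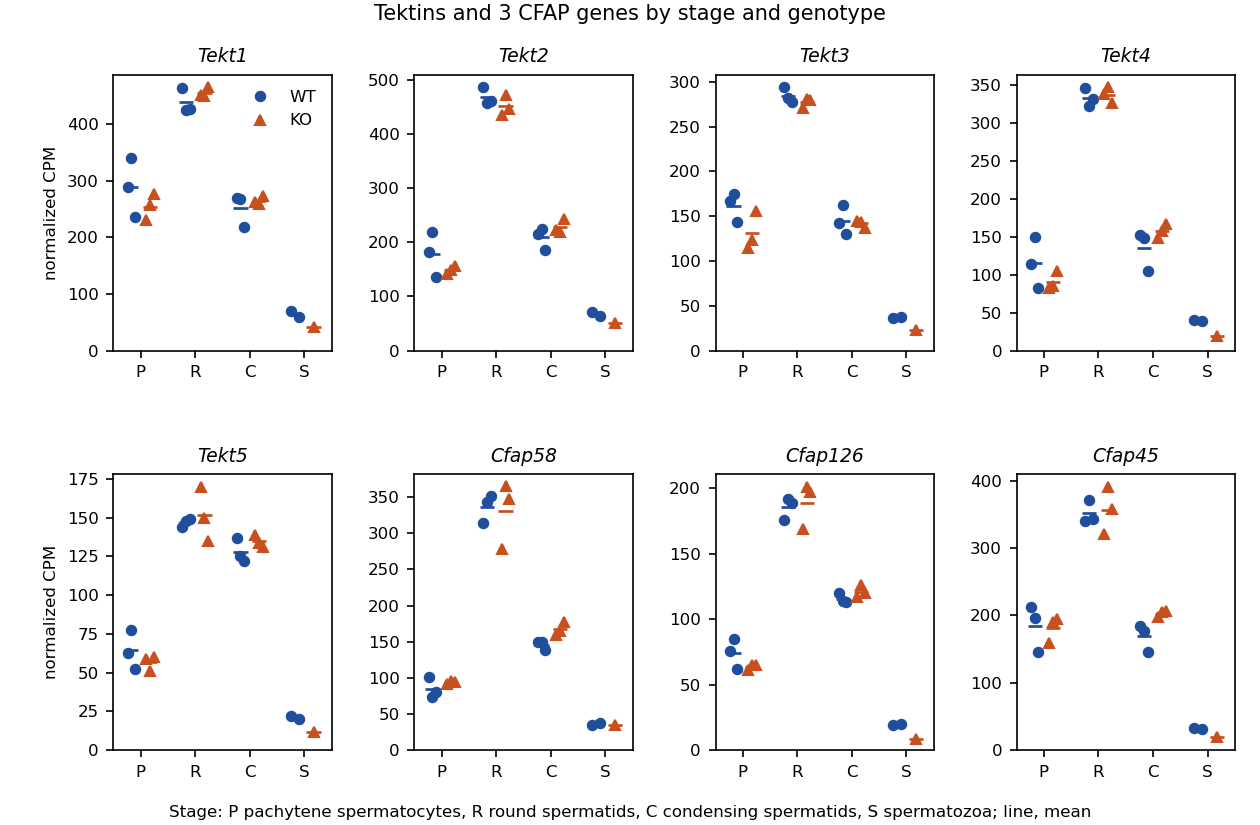
Points give normalized CPM of each library for the 5 tektins and 3 CFAP genes, with WT circles, KO triangles and the group mean as a line, from pachytene spermatocytes (P) through round (R) and condensing spermatids (C) to spermatozoa (S). All 8 genes are highest in round spermatids in both genotypes, and only *Tekt5* keeps nearly that level in condensing spermatids.

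Outer arm heavy chains moved in opposite directions by type. *Dnah8* was at 6200, 6000 and 7500 CPM in WT pachytene spermatocytes and at 2690, 2440 and 2390 in WT round spermatids, a log2 fold change of -1.36 ± 0.14 (adjusted p = 2.06e-06). The lowest pachytene library was above the highest round library by far more than the spread within either stage. *Dnah17* went from 1870, 2100 and 1940 to 1120, 953 and 953 CPM (-0.93 ± 0.13, adjusted p = 3.03e-05). The ciliary heavy chains rose instead, from low levels. *Dnah5* went from 4.09, 3.35 and 3.96 CPM to 12.9, 14.3 and 17.5 (2.00 ± 0.19, adjusted p = 1.02e-06), and *Dnah9* from 3.37, 6.21 and 3.37 to 14.9, 10.2 and 12.2 (1.54 ± 0.24, adjusted p = 7.50e-05). *Dnah11*, at 0.880 to 2.05 CPM and then 2.03 to 2.95, passed the test at an adjusted p of 0.0363 although its groups overlapped.

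Inner arm heavy chains were mostly lower in round spermatids, 4 of 6, with *Dnah10* higher and *Dnah6* not called. *Dnah2* was at 619, 694 and 721 CPM and then at 282, 240 and 219, the largest fall of any member (-1.42 ± 0.14, adjusted p = 1.30e-06). *Dnah1*, an inner arm chain whose loss impairs the sperm tail, went from 789, 881 and 766 to 401, 327 and 310 CPM (-1.20 ± 0.15, adjusted p = 1.01e-05). Stages were clearly apart for both. *Dnah7a* (-0.60 ± 0.16) and *Dnah7b* (-1.0 ± 0.23) also fell, but their pachytene libraries were far apart, at 345 to 551 and 367 to 796 CPM. These 2 genes, named as copies, lie on chromosome 1, at chr1:53396995-53707301 and chr1:46066071-46373551 (GRCm38.p6). How alike their sequences are was not measured here. Only uniquely aligned reads were counted, so their levels are uncertain. *Dnah10* rose a little (0.33 ± 0.12, adjusted p = 0.0269).

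Length went with direction among the members. For the 11 members with transcripts over 10 kb, which are the 11 heavy chains, the median log2 fold change was -0.60, against 0.18 over all 352 tested genes of that length. For the 12 members under 2 kb the median was 0.91, against 0.11 over 3962 genes. In the KO the medians were -0.80 and 1.02, against -0.04 and 0.22. The part of transcript length in these differences was not tested.

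**Figure D3:**
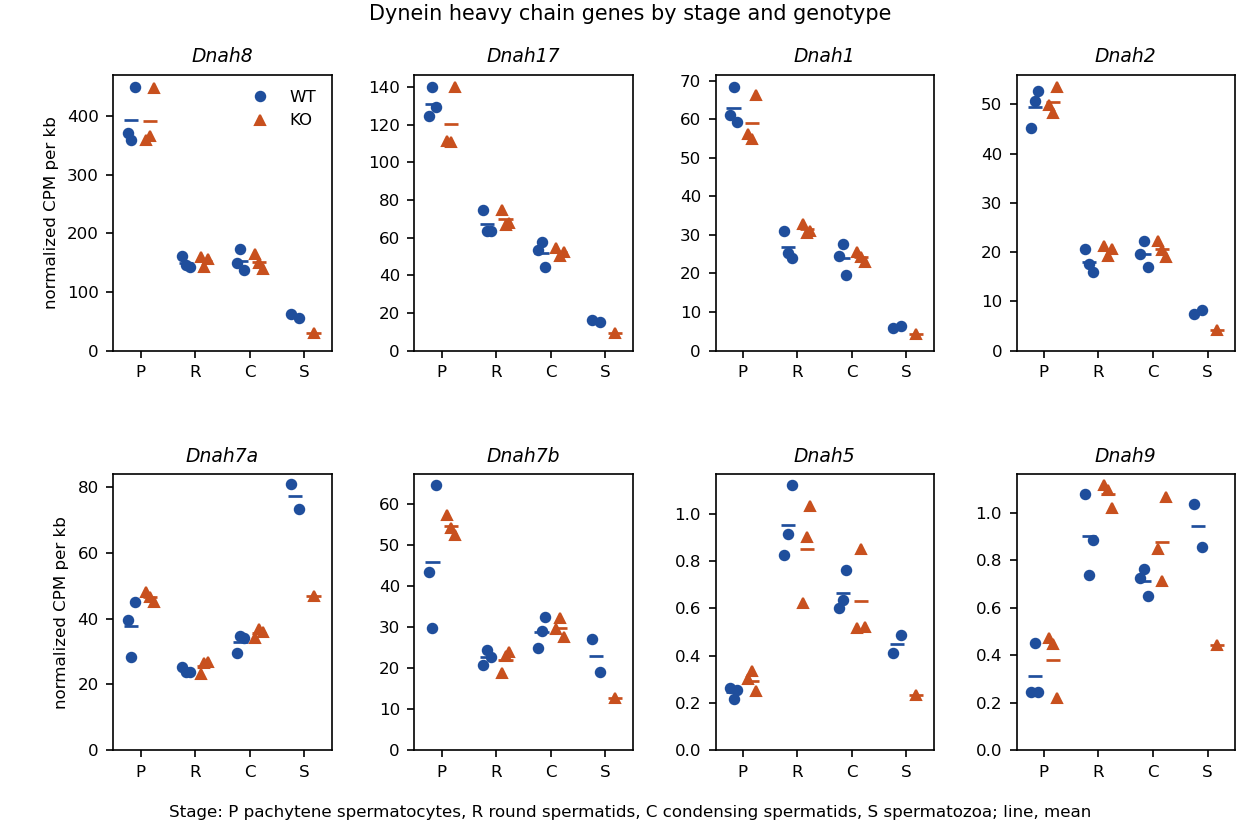
Points give normalized CPM per kb of transcript of each library for 8 dynein heavy chains, with WT circles, KO triangles and the group mean as a line; stages are pachytene (P), round (R), condensing (C) and spermatozoa (S), and each panel has its own scale from 0. *Dnah8*, *Dnah17*, *Dnah1* and *Dnah2* are highest in pachytene spermatocytes, *Dnah5* and *Dnah9* rise in round spermatids from very low levels, and *Dnah7a* is highest in spermatozoa.

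The intermediate chains of the outer arm differed from their heavy chains. *Dnaic2* rose from 81.2, 95.2 and 68.9 CPM to 145, 136 and 128 (0.77 ± 0.14, adjusted p = 2.58e-04). *Dnaic1* was at 126, 135 and 132 CPM and at 120, 140 and 124, with overlapping groups and a log2 fold change of 0.00 ± 0.11. Among the assembly factors, *Dnaaf2* (-0.86 ± 0.13) and *Dnaaf5* (-0.75 ± 0.15) fell and *Dnaaf3* rose (0.67 ± 0.14), while *Dnaaf1*, the most abundant of the 4, was at 946 to 1300 CPM and then 1050 to 1180 and was not called (-0.02 ± 0.13).

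Radial spoke genes were divided too, 3 lower, 2 higher and 2 not called. *Rsph1* was at 1450, 1430 and 1240 CPM in WT pachytene spermatocytes and at 602, 579 and 601 in WT round spermatids (-1.18 ± 0.14, adjusted p = 7.43e-06), and these levels were well apart. The spoke stalk genes *Rsph3a* (-0.86 ± 0.12) and *Rsph3b* (-0.87 ± 0.12) fell by like amounts. They are also named as copies, on chromosome 17. Their likeness was not measured either, and unique counting leaves the split between them uncertain. *Rsph14* (1.12 ± 0.25) and *Cfap61* (0.73 ± 0.13), a gene of the base of the spokes, rose. *Rsph6a* (-0.07 ± 0.16) and *Rsph9* (0.33 ± 0.16, adjusted p = 0.0849), both of the spoke head, were not called, so genes of the same spoke head did not share 1 course. Both genes of the nexin-dynein regulatory complex, *Drc1* (0.00 ± 0.14) and *Drc7* (0.11 ± 0.15), were not called either.

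The CFAP genes followed no common direction. In the central apparatus, *Cfap46* (-1.21 ± 0.12), *Cfap74* (-0.71 ± 0.13) and *Cfap70* (-0.63 ± 0.13) fell, whereas *Cfap69* went from 247, 197 and 254 CPM to 470, 576 and 567 (1.24 ± 0.15, adjusted p = 7.34e-06) and *Cfap221* rose slightly (0.40 ± 0.12). Of the microtubule inner proteins, *Cfap126* went from 75.7, 84.8 and 62.0 CPM to 176, 192 and 189 (1.35 ± 0.13, adjusted p = 7.43e-07), and *Cfap45* (0.96 ± 0.15) and *Cfap53* (0.78 ± 0.17) also rose. *Cfap20*, of the inner junction of the doublet, fell (-0.49 ± 0.12), and *Cfap52* was not called. *Cfap58*, needed for the flagellum of sperm, showed the largest rise of all members, from 101, 73.1 and 80.5 CPM to 314, 344 and 352 (2.02 ± 0.14, adjusted p = 6.81e-08). Its chromosomal neighbour *Cfap43* lies 100.3 kb away on chromosome 19 and rose by much less (0.58 ± 0.16, adjusted p = 4.89e-03). *Cfap43* was no longer called with library size as the only scaling (adjusted p = 0.0545). Its partner in the tether of the inner arms, *Cfap44*, was not called (0.07 ± 0.14), and *Cfap57* fell slightly (-0.31 ± 0.12).

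The WT pachytene libraries differed among themselves in marker genes. Their 9 spermatocyte markers summed to 2640 to 2710 CPM, against 1690 to 1700 in round spermatids, but *Sycp1*, of the synaptonemal complex, was at 107, 66.3 and 209 CPM in replicates 1, 2 and 3, and the summed markers of condensing spermatids ranged from 2470 to 6050 CPM there, against 29000 to 31900 in round spermatids. Replicate 2 was the lowest of the 3 for *Sycp1* and for *Cfap43*, *Cfap97* and *Dnah7b*, and replicate 3 was the lowest for each of the 5 tektins. The 7 Leydig cell markers summed to 79.7 to 164 CPM in WT pachytene and 11.3 to 15.1 in WT round libraries. The 10 Sertoli cell markers overlapped, at 31.9 to 38 and 34.8 to 53.6 CPM. The part of this spread and of the Leydig cell RNA in the stage differences was not tested. Leaving out each library in turn gave 33 to 35 members called.

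From round to condensing spermatids the direction was nearly uniform. Of 47 members tested, 32 were lower in WT condensing spermatids (68.1%), 1 was higher (2.13%) and 14 were not called, against 21.8% lower and 28.3% higher of the 14011 genes tested. The median log2 fold change was -0.52 over the members and 0.04 over all genes. Without single libraries the number called ranged from 28 to 32. The 8 round spermatid markers summed to 1440 to 1660 CPM in WT round and 799 to 860 in WT condensing spermatids. The 10 condensing spermatid markers summed to 29000 to 31900 and 30200 to 44000 CPM, with overlap. The part of the cell mix of the 2 fractions in the lower levels was not tested.

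Of the 20 members that had risen into round spermatids, 16 fell after them (80%) and 4 were not called. Of the 4816 genes that had risen, 38.1% fell. The 2 steps share the round libraries, and the difference between these shares was not tested. *Tekt4* was at 153, 148 and 105 CPM in condensing spermatids, below each of its round libraries (-1.27 ± 0.19, adjusted p = 1.93e-04). *Cfap58* fell to 150, 150 and 138 CPM (-1.18 ± 0.13, adjusted p = 2.05e-05), and *Tekt2* to 216, 225 and 186 (-1.14 ± 0.16, adjusted p = 9.57e-05). The groups stood apart for all 3 genes. *Tekt3* (-0.95 ± 0.12) and *Tekt1* (-0.78 ± 0.14) fell as well, and *Tekt5* alone among the tektins was not called, at 137, 125 and 122 CPM (-0.18 ± 0.13, adjusted p = 0.288), although its groups did not overlap.

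Other roles shared the fall. All 5 microtubule inner protein genes were lower in condensing spermatids, among them *Cfap45* (-1.03 ± 0.15, adjusted p = 1.18e-04) and *Cfap53* (-0.95 ± 0.17). So were both intermediate chains, *Dnaic1* (-0.82 ± 0.11) and *Dnaic2* (-0.94 ± 0.14), all 4 assembly factors, from *Dnaaf3* (-0.68 ± 0.15) to *Dnaaf5* (-0.42 ± 0.16), and both *Drc1* (-0.79 ± 0.14) and *Drc7* (-0.74 ± 0.15). Within the radial spokes *Rsph14* (-1.03 ± 0.25), *Rsph9* (-0.80 ± 0.16), *Cfap61* (-0.80 ± 0.14) and *Rsph6a* (-0.60 ± 0.17) fell. *Rsph1* was at 534, 488 and 368 CPM and missed the threshold (-0.33 ± 0.14, adjusted p = 0.0646), and it passed with DESeq2's Wald test (adjusted p = 0.0223) and without WT condensing replicate 1 (adjusted p = 0.0355).

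Of the 16 members that had fallen into round spermatids, 6 fell further (37.5%), 9 were not called and 1 rose (6.25%), against 6.8% that fell further and 41.6% that rose of the 5031 genes that had fallen. *Dnah8* was at 2480, 2880 and 2280 CPM in condensing spermatids, overlapping its round libraries (0.04 ± 0.14, adjusted p = 0.815, 95% interval of the log2 fold change -0.26 to 0.35). *Dnah2* (0.14 ± 0.14), *Dnah1* (-0.14 ± 0.15), *Cfap46* (0.01 ± 0.12) and *Rsph3b* (-0.09 ± 0.12) were likewise not called. *Dnah17* fell by 0.35 ± 0.13 on the log2 scale (adjusted p = 0.0394), a call lost without WT round replicate 1, 2 or 3 or WT condensing replicate 1 or 3 (adjusted p 0.062 to 0.149). *Dnah7a* was the member that rose, from 309, 291 and 290 to 360, 425 and 416 CPM (0.46 ± 0.16, adjusted p = 0.0314), and its call was lost without WT round replicate 1, 2 or 3 or WT condensing replicate 2 or 3 (adjusted p 0.0598 to 0.13). The condensing fraction held more RNA of somatic cells than the round fraction. The 10 Sertoli cell markers summed to 403 to 513 CPM against 34.8 to 53.6, and the 7 Leydig cell markers to 147 to 232 against 11.3 to 15.1. The 9 spermatocyte markers summed to 1390 to 1660 CPM in condensing and 1690 to 1700 in round spermatids, but they moved in both directions. *Sycp1* was at 144 to 180 CPM in condensing against 63.4 to 112 in round spermatids, and *Tdrd1* at 121 to 157 against 33.3 to 59.8. *Sycp3*, *Hormad1* and *Piwil2* were also higher in condensing spermatids, without overlap. Lower without overlap were *Mael*, at 706 to 838 against 1180 to 1190, *Ccna1* and *Dmc1*, while *Spo11* overlapped. The part of these RNAs in the stage differences was not tested.

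Counting each member's stage of highest mean level among the 3 WT stages, 23 of 47 peaked in pachytene spermatocytes (48.9%), 23 in round spermatids (48.9%) and 1, *Dnah11*, in condensing spermatids (2.13%). Of all genes tested, 42.6% peaked in pachytene spermatocytes, 31.1% in round spermatids and 26.3% in condensing spermatids.

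In a window at an annotated transcript start, 4 members held an X-box, the site bound by RFX factors, which control genes of cilia in many animals. For *Dnaaf5* and *Rsph9* that start lies 102 and 42 bases inside the annotated gene, but for *Tekt4* it lies 17041 bases inside, at the 1 start with a window, and for *Cfap126* 9133 bases inside, at 1 of 3 starts, of which the other 2 held no X-box. The sequences are shown because 2 of them, *Tekt4* and *Cfap126*, belong to the genes that rose into round spermatids, whereas *Dnaaf5* fell and *Rsph9* was not called, so the same motif stood beside genes of each course. All 4 were lower in condensing spermatids. The sequences are from RefSeq (GRCm38.p6), 54 bases each, read 5′ to 3′ on the strand of the gene, with the X-box in capitals. The X-box was searched on both strands as GTNNCC, any 2 bases and GGNNAC, in windows from 250 bases before to 50 bases after a transcript start.
Tekt4, chr17:25471410-25471463, plus strand: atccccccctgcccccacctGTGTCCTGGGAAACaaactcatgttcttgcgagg
Cfap126, chr1:171122943-171122996, plus strand: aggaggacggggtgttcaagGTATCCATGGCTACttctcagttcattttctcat
Dnaaf5, chr5:139150197-139150250, plus strand: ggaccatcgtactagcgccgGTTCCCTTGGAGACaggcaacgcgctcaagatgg
Rsph9, chr17:46144173-46144226, minus strand: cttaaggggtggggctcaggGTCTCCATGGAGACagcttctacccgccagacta

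The X-box of *Rsph9* spans its start, and that of *Tekt4* begins 160 bases before the internal start. Which start the counted RNA came from was not tested. A window was at hand for 43 of the 48 members, and 4 of these held an X-box (9.3%), against 2.16% of 27025 genes. The shorter site GTTGCC, which an X-box can contain, was in 16 of the 43 members (37.2%) and in 14.1% of all genes. It was in 6 of 19 members that were higher in round spermatids and in 8 of 15 that were lower. The cyclic AMP response element TGACGTCA, the site of CREM, was in 1 of 43, *Dnah6* (2.33%), and in 2.03% of all genes. A match of letters says nothing of binding, and no match says only that the letters are absent from this window.

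In WT spermatozoa nearly every axoneme RNA was lower again. Compared with WT condensing spermatids, 42 of 47 members were lower (89.4%), 1 was higher (2.13%) and 4 were not called, against 35.8% lower and 36.6% higher of 15116 genes tested. The median log2 fold change was -1.61 over the members and 0.00 over all genes. *Tekt5* went from 137, 125 and 122 CPM to 22.2 and 20.1 (-2.55 ± 0.17, adjusted p = 3.78e-11), *Cfap126* from 120, 114 and 113 to 19.2 and 20.1 (-2.50 ± 0.17, adjusted p = 4.64e-11), and *Cfap36* from 350, 381 and 296 to 65.0 and 51.7 (-2.50 ± 0.18, adjusted p = 6.45e-11). The 2 groups were several-fold apart for each of these genes. *Rsph14* was lower too (-2.80 ± 0.47), on 9 and 1 counts in the spermatozoa libraries. *Cfap45* (-2.36 ± 0.17), *Rsph1* (-2.23 ± 0.18), *Dnaaf2* (-2.10 ± 0.21) and *Cfap97* (-2.09 ± 0.18) followed, and *Dnah8* fell from 2480, 2880 and 2280 CPM to 1050 and 930 (-1.32 ± 0.18, adjusted p = 1.33e-06).

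*Dnah7a* went the other way. It was at 360, 425 and 416 CPM in WT condensing spermatids and at 988 and 896 in WT spermatozoa, with no overlap (1.28 ± 0.15, adjusted p = 1.64e-07). It then made up 20.5% to 21% of the members' counts, against 3.19% to 4.11% in WT condensing spermatids. *Dnah7b*, named as its copy, was at 308, 358 and 399 CPM and at 333 and 233 and was not called (-0.28 ± 0.17, adjusted p = 0.146). *Dnah5*, *Dnah9* and *Dnah11* were not called either, at 3.12 to 14.3 CPM in spermatozoa. The call for *Dnah7a* was kept under each alternative that was run, including the removal of either spermatozoa library (adjusted p = 1.39e-04 and 3.31e-05). The spermatozoa libraries, although labelled as testis, held *Crisp1*, a gene of the epididymis, at 1480 and 1560 CPM, against at most 1.41 in WT condensing spermatids, and the 7 macrophage markers summed to 435 to 444 CPM against 22.1 to 30.6. Their part in these differences was not tested. Of the 8 genes on the epididymis list, *Crisp1* alone was at such a level. *Lcn5*, *Lcn8* and *Defb41* were at 0 in both WT spermatozoa libraries. *Cst11*, *Wfdc2* and *Adam28* were at 0 to 0.347 CPM, and *Rnase10* at 4.08 and 0.

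Loss of H2A.L.2 left no axoneme gene past the test in any of the 3 stages. In pachytene spermatocytes 0 of 47 members were called with edgeR's test, as with DESeq2, and 2 had an unadjusted p under 0.05, where 815 of all 12236 genes did and 0% were called. In round spermatids 0 of 47 were called with either tool and 1 had an unadjusted p under 0.05, against 0.0156% called among 12804 genes and 753 at that p. In condensing spermatids 0 of 47 were called with either tool and 2 had an unadjusted p under 0.05, against 0.00728% called among 13734 genes and 870 at that p. The median log2 fold change of the members was -0.02, 0.02 and 0.05 in the 3 stages. In pachytene spermatocytes edgeR's test did not call *H2afb1* either (adjusted p = 0.484). The 9 spermatocyte markers summed to 2640 to 2710 CPM in WT and 2790 to 3010 in KO pachytene libraries. The sums of Leydig cell markers (79.7 to 164 and 25.4 to 107) and condensing spermatid markers (2470 to 6050 and 3200 to 3510) overlapped. The part of the cell mix in the KO comparison was not tested.

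The intervals of these differences were narrow for most members. In round spermatids, the 95% interval of the KO to WT fold lay within 2-fold for 47 of 47 members and within 1.5-fold for 45. In condensing spermatids it did so for 47 and 44, and in pachytene spermatocytes for 45 and 34. The shares of all genes with such intervals were not counted. The intervals wider than 2-fold in pachytene spermatocytes belonged to *Dnah11* and *Dnah9*, with mean levels of 2.23 and 4.78 CPM. A p that misses the threshold does not show that the genotypes had the same level.

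The members with the smallest p were different in each stage. In pachytene spermatocytes *Dnah11* was at 2.05, 1.31 and 0.880 CPM in WT and at 3.88, 2.38 and 2.87 in the KO (log2 fold change 1.15 ± 0.36, adjusted p = 0.656). *Cfap69* was at 247, 197 and 254 CPM and at 285, 319 and 269 (0.38 ± 0.15, adjusted p = 0.656). The genotypes did not overlap for these 2 genes, but neither passed the adjustment. *Dnaic2* was at 81.2, 95.2 and 68.9 CPM in WT and at 41.2, 54.1 and 76.2 in the KO (-0.44 ± 0.20, adjusted p = 0.656), with overlap.

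In round spermatids the sequence was *Dnah1*, *Dnaic1* and *Cfap70*. *Dnah1* was at 401, 327 and 310 CPM in WT and 425, 393 and 400 in the KO (0.24 ± 0.10, adjusted p = 0.769), and the highest WT library lay within the KO range. Without WT round replicate 1, the one nearest to the KO, *Dnah1* was called (log2 fold change 0.36, adjusted p = 0.0483) and 264 of all genes were. The WT side of that fit was replicates 2 and 3 alone, the closest pair of libraries. *Dnaic1* was at 120, 140 and 124 CPM in WT and at 110, 108 and 117 in the KO, without overlap (-0.19 ± 0.09, adjusted p = 0.866), and *Cfap70* differed by 0.17 ± 0.09 (adjusted p = 0.907). In condensing spermatids the members were *Cfap53*, at 97.4, 77.2 and 61.3 CPM in WT and 101, 107 and 97.1 in the KO (0.36 ± 0.14, adjusted p = 0.683), *Cfap45* (0.25 ± 0.11, adjusted p = 0.763) and *Rsph1* (0.26 ± 0.14, adjusted p = 0.846). The WT and KO libraries of *Cfap53* touched only through WT replicate 1.

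For 19 of the genes best known from the sperm flagellum, among them *Dnah1*, *Dnah8*, *Dnah17*, the tektins, *Cfap43*, *Cfap44* and *Cfap58*, the KO to WT log2 fold change ran from -0.44 to 0.38 in pachytene spermatocytes, from -0.19 to 0.24 in round spermatids and from -0.13 to 0.26 in condensing spermatids. Their standard errors were at most 0.20, 0.11 and 0.15. *Dnah8*, the gene with the most counts, differed by 0.05 ± 0.16, 0.04 ± 0.07 and -0.03 ± 0.15.

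**Figure D4:**
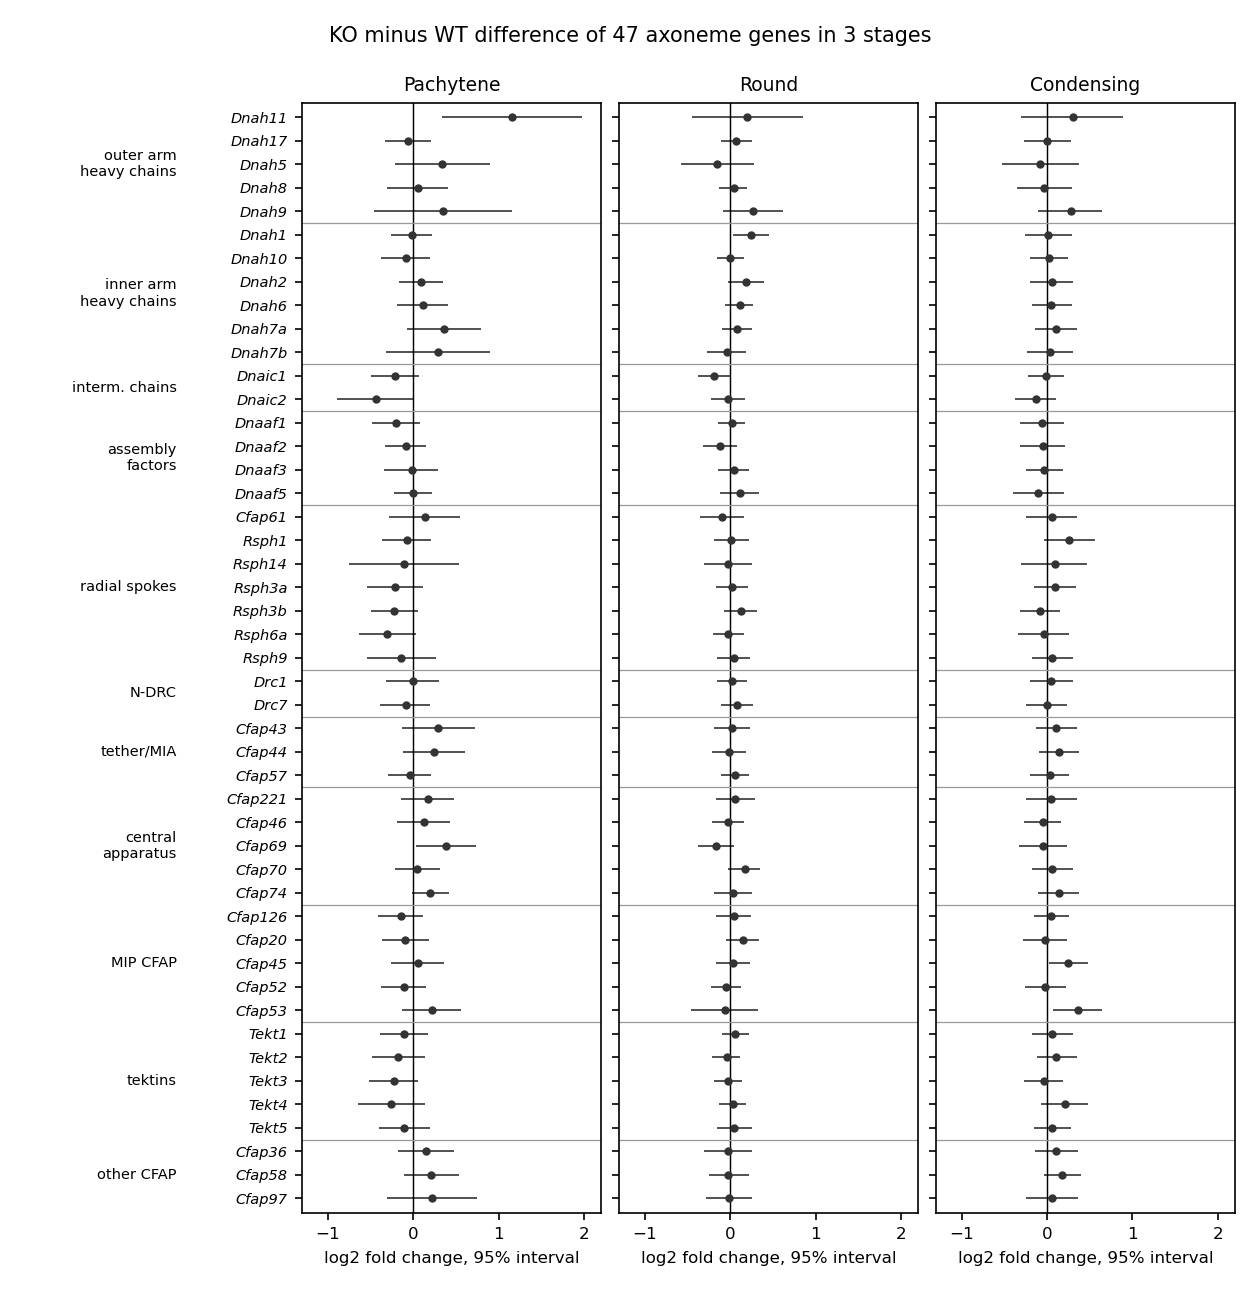
Points give the log2 fold change of KO over WT for each of the 47 tested genes, with its 95% interval as a bar. The stages are pachytene spermatocytes, round spermatids and condensing spermatids, with 3 libraries per genotype. N-DRC is the nexin-dynein regulatory complex, tether/MIA marks the dynein-regulating genes *Cfap43*, *Cfap44* and *Cfap57*, and MIP stands for microtubule inner proteins. Points run from -0.44 to 1.15 in pachytene, -0.19 to 0.27 in round and -0.13 to 0.36 in condensing stages, and *Dnah11* in pachytene spermatocytes is the point farthest from 0.

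Whether the KO difference changed from stage to stage was tested as an interaction on 18 libraries. From pachytene spermatocytes to round spermatids 0 of 47 members were called with edgeR's test, as with DESeq2, and 2 had an unadjusted p under 0.05, against 0% called and 1050 at that p among 14479 genes. The smallest p belonged to *Cfap69* (log2 difference -0.56 ± 0.18, adjusted p = 0.676), followed by *Rsph3b* (0.36 ± 0.16) and *Dnah11* (-0.93 ± 0.45). Without the libraries numbered 3, 5 members and 731 genes were called: *Cfap69* (-0.65, adjusted p = 0.0493) was more negative, and *Dnaic2* (0.77), *Tekt4* (0.67), *Rsph6a* (0.56) and *Dnaaf1* (0.49) were positive. From round to condensing spermatids 0 of 47 members were called with either tool and 0 had an unadjusted p under 0.05, against 0% called and 407 at that p among all genes, and the smallest p was that of *Cfap53* (0.42 ± 0.27, adjusted p = 1).

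The KO went through the same stage steps as the WT, on libraries of its own. Between KO pachytene spermatocytes and KO round spermatids, 21 of 47 members were higher (44.7%) and 15 lower (31.9%), against 36.5% and 38.4% of 13877 genes. The direction and call were shared with the WT for 33 members, and no member was called in opposite directions. *Cfap20*, *Cfap57* and *Dnah11* were called in WT and *Cfap97*, *Drc7* and *Rsph9* in the KO, and 0 of these 6 passed the interaction test. *Tekt4* rose by 1.88 ± 0.10 in the KO, *Cfap58* by 1.80 ± 0.11 and *Cfap126* by 1.56 ± 0.10, and *Dnah8* fell by 1.37 ± 0.11. The 5 tektins rose in both genotypes.

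Between KO round and KO condensing spermatids, 33 of 47 members were lower (70.2%) and 2 were higher (4.26%), against 24.5% and 29.7% of all genes. The call was shared with the WT for 32 members, again with none in opposite directions. *Dnah5* was called in WT alone and *Dnah1*, *Dnah7b* and *Rsph3b* in the KO alone, and their interactions were not called. *Dnah7a* rose in the KO as well (0.50 ± 0.10, adjusted p = 2.29e-04), together with *Dnah7b* (0.46 ± 0.11, adjusted p = 1.60e-03), and *Tekt4* fell by 1.09 ± 0.10. *Tekt5* (-0.16 ± 0.10) and *Dnah8* (-0.01 ± 0.11) were not called, as in WT. The stage with the highest mean was the same in both genotypes for 42 of 47 members, and the share over all genes was not counted.

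**Figure D5:**
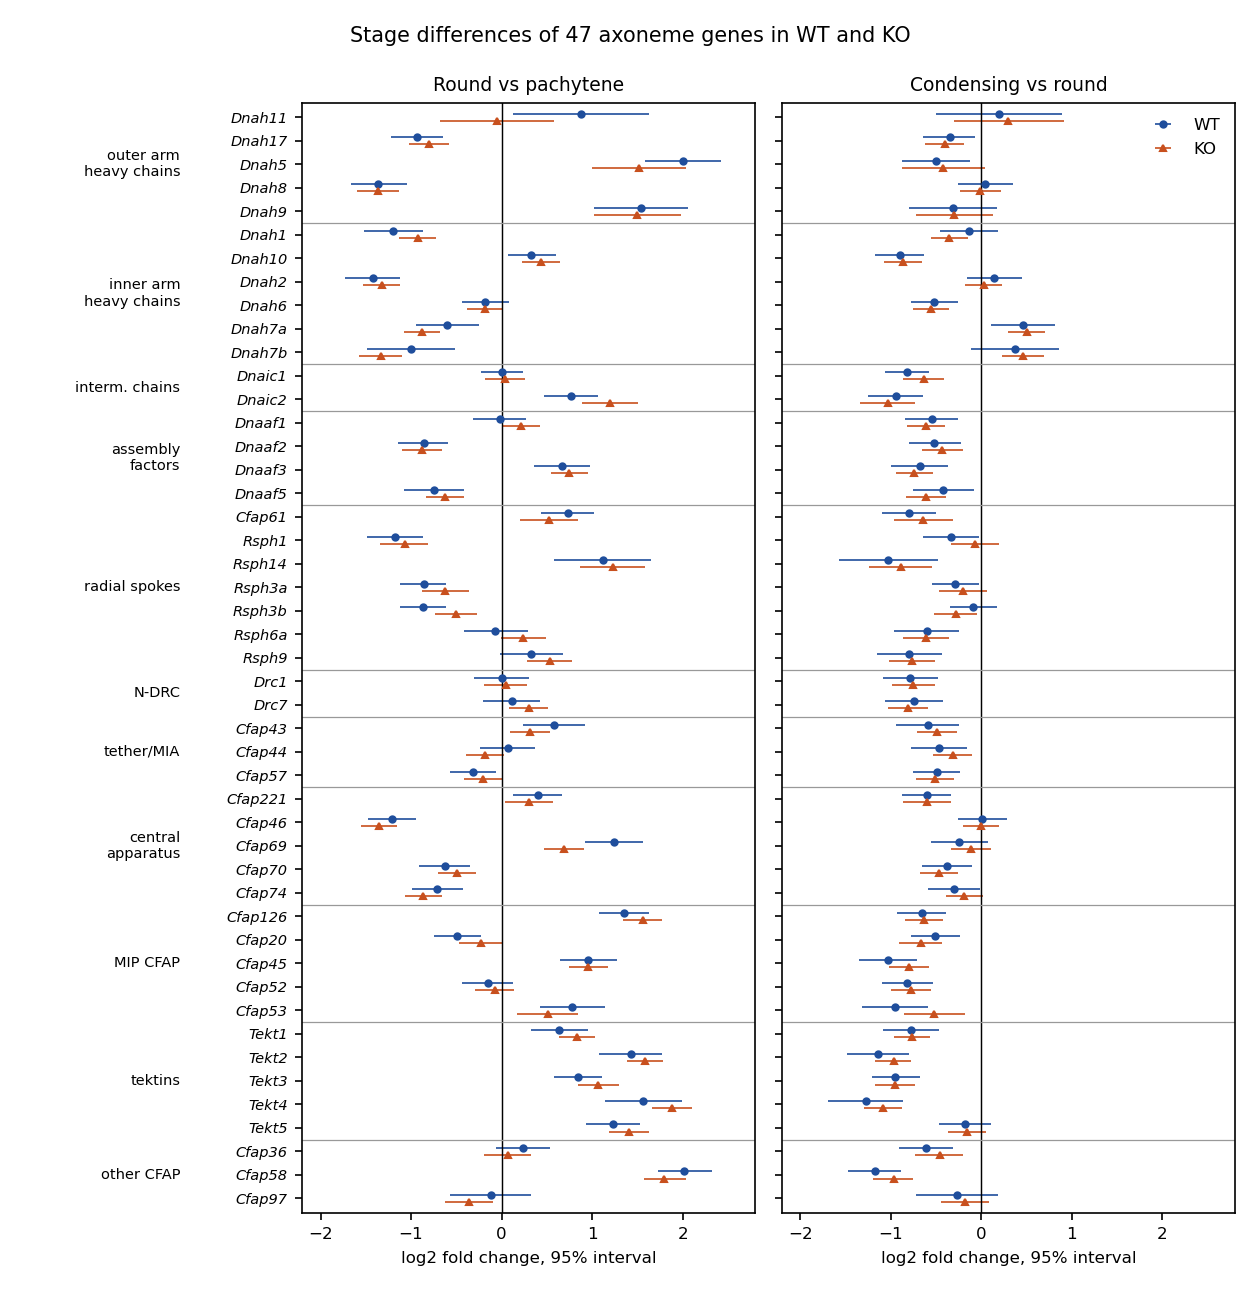
Points give the log2 fold change of each of the 47 tested genes with its 95% interval as a bar, for round vs pachytene spermatocytes (left) and condensing vs round spermatids (right), in WT (circles) and KO (triangles). WT and KO points lie side by side for most genes, with tektins right of 0 and then left of 0.

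The single KO library of spermatozoa allows no test. Of the 48 members, 44 were below both WT libraries there, and the share of all genes below both was not counted. *Dnah8* was at 508 CPM (exact Poisson 95% interval 484 to 533, for counting error only) against 1050 and 930, *Dnah7a* at 571 CPM (546 to 598) against 988 and 896, and *Tekt4* at 18.9 CPM (14.5 to 24.2) against 40.5 and 38.8. *Cfap58* was at 34.4 CPM (28.4 to 41.4), close to its WT levels of 34.7 and 37.5. The median ratio of KO to mean WT was 0.608 over the 46 members with at least 30 counts in the 3 libraries, and 1.04 over 12969 genes. Marker RNAs of germ cells and of other cells differed in the same library. The 10 condensing spermatid markers summed to 11300 CPM in the KO library and 32000 to 36500 in WT. The 9 spermatocyte markers summed to 235 CPM against 354 to 361, and the 8 round spermatid markers to 124 against 136 to 149. The 7 macrophage markers summed to 1890 CPM against 435 to 444. *Crisp1*, of the epididymis, was at 509 CPM against 1480 and 1560. The 10 Sertoli cell markers summed to 618 CPM against 297 to 358. *Trf* (334 against 107 and 89.8) and *Clu* (273 against 225 and 185) held most of that sum. *Sox9* and *Cldn11* were lower in the KO library, and the rest of that list was at most 3.35 CPM there. The part of these RNAs in the lower axoneme levels was not tested, and with 1 library the genotype and the library cannot be told apart. *Dnah7a* made up 21.3% of the members' counts, as in WT.

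Other genes linked to the axoneme or its assembly, from a list of 67 genes in the files that the naming rule does not reach, are given beside the members. The difference was not tested. A place on the list does not mean that the protein is part of the axoneme. Of 65 tested, 36 were higher and 13 lower in WT round than in WT pachytene spermatocytes, against 34.4% and 35.9% of all genes, and the median log2 fold change was 0.38. *Spata18* (2.58 ± 0.24), *Efcab1* (2.48 ± 0.31), *Efhc2* (2.30 ± 0.16) and *Ribc1* (2.18 ± 0.15) rose most, and *Dyx1c1* (-2.60 ± 0.14), *Spef1* (-2.08 ± 0.16), *Pih1d3* (-1.71 ± 0.20) and *Zmynd10* (-1.47 ± 0.19) fell most. Of the same 65, 48 were lower and 4 higher in condensing spermatids, against 21.8% and 28.3% of all genes, with the largest fall by the same rule for *Spag6l* (-1.25 ± 0.18), of the central apparatus. In spermatozoa 59 were lower and 2 higher, against 35.8% and 36.6% of all genes. The 2 were *Spag16* (1.20 ± 0.15), of the central apparatus, and *Spata18* (0.61 ± 0.18). The median log2 fold change of KO over WT of the 65 genes was -0.03, -0.01 and 0.05 in pachytene, round and condensing stages.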

How the data were processed

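RNA was measured in 21 libraries with a stranded total RNA kit after ribosomal RNA depletion. The authors aligned paired reads to mm10 with STAR (version 2.7.11b, per the labels), counted uniquely aligned reads over exons on the transcribed strand with HTSeq, and deposited raw counts per gene without normalization. Reads of near-identical copies are therefore undercounted. The 5 rows that name no gene held 34.6% to 57.7% of reads and were left out. Members were the genes whose symbol met the naming rule. The members and the gene and marker lists were chosen with earlier results of these data known.

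Counts were tested with edgeR 4.0.16 (R 4.3.3, limma 3.58.1) by the quasi-likelihood test, with TMM scaling, the filterByExpr filter and Benjamini-Hochberg adjustment over all genes at 0.05. KO and WT were compared within a stage, stages within a genotype on 9 libraries, spermatozoa with condensing spermatids on the WT libraries of both, and interactions on 18. Full statistics were given for up to 8 members per direction with the largest change among those called, at 1 CPM or more and without overlap, for the 3 members of smallest p where none was called, and for 20 well known flagellum genes, of which 19 were found and *Cfap65* was not analysed here. From the list of other genes linked to the axoneme, up to 4 per direction are named by the same rule. *Sycp1*, *Tdrd1*, *Crisp1* and the other markers with values of their own were chosen after their values were seen. Levels per kb used the longest transcript of each gene in GENCODE's basic annotation, known for 48 of 48 members. Alternatives were DESeq2 1.42.0, its size factors, library size alone, no filter, a wider fit, the replicate number as a block, the sum of 2 similar libraries and each library left out. The fits were tested on simulated data. Replicate numbers were not used as pairs, since in none of 8 comparisons did every same-numbered pair correlate above 0.1 (correlations -0.235 to 0.293). For KO against WT round spermatids the 3 correlations were all positive, at 0.0637 to 0.287.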

Additional observations from a re-analysis of the deposited data

How the results depend on the processing

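The counts of members called stayed within 1.5-fold of the main count under every change of test, scaling, filter, fit or sample set that was run, except in 2 cases. Without WT round replicate 1 the KO comparison in round spermatids gave 1 member, and without the libraries numbered 3 the interaction of round and pachytene stages gave 5. When each library was left out in turn, the members called numbered 0 to 0, 0 to 1 and 0 to 0 for the KO in pachytene, round and condensing stages, 33 to 35 and 28 to 32 for the WT steps, 32 to 38 and 33 to 37 for the KO steps, 43 to 44 for spermatozoa, and 0 to 5 and 0 to 0 for the interactions. With the replicate block, members called were 0 in each KO comparison and interaction, 37 and 32 for the WT steps, 36 and 34 for the KO steps and 43 for spermatozoa, but the numbers were not shown to mark pairs. With WT round replicates 2 and 3 summed, the WT steps gave 34 and 29. Without division by length, *Dnah8* held 31.6%, 16.9% and 22.6% of the members' level in WT pachytene, round and condensing stages, in place of 8.27%, 3.35% and 5.21%, since its transcript is long.

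The log2 fold change of single genes kept direction and call in 1641 of 1706 alternative values. It changed sign in 28, none past the threshold, and the cause was not tested. For the WT step from pachytene to round, *Dnaaf1* (-0.02) became 0.02 with DESeq2 or its size factors and 0.01 with the 2 round replicates summed, and ran from -0.14 to 0.08 without single libraries. *Dnaic1* (0.00) became -0.19 with library size only, -0.03 without a filter, 0.00 with the replicate block and -0.01 with the summed replicates, and ran from -0.06 to 0.05 without single libraries. *Drc1* (0.00) became -0.18 with library size only and -0.03 without a filter, and ran from -0.12 to 0.07. *Cfap44* (0.07) became -0.13 with library size only and ran from -0.08 to 0.14, and *Rsph6a* (-0.07) ran from -0.16 to 0.01. For WT condensing against round, *Dnah8* (0.04) ran from -0.09 to 0.11. In the KO, *Dnaic1* and *Drc1* became -0.11 and -0.10 with library size only in the first step and ran from -0.08 to 0.10 and from -0.07 to 0.16. In the second, *Dnah8* (-0.01) became 0.00 with library size only and ran from -0.08 to 0.06, and *Rsph1* (-0.07) ran from -0.17 to 0.01. A further 23 values lost and 14 gained a call with direction kept, most often *Dnah17* (8) and *Dnah7a* (7) for WT condensing against round. The floor of 3 counts came to 1.08 CPM in the shallowest library, so that *Rsph4a* and *Dnah11* were hardly resolved there.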

Other observations

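The factors known to switch on genes of motile cilia were themselves RNAs of these fractions, and in WT several were higher in round than in pachytene spermatocytes. *Foxj1*, the master regulator of motile cilia, was at 47.5, 56.4 and 22.9 CPM in WT pachytene spermatocytes, at 188, 158 and 155 in WT round spermatids and at 78.5, 71.2 and 48.0 in WT condensing spermatids. The round libraries were above all others of the 3 stages (log2 fold change 2.01 ± 0.26, adjusted p = 1.47e-05, and then -1.32 ± 0.26, adjusted p = 1.10e-03, edgeR with Benjamini-Hochberg adjustment). *Rfx1* went from 46.2, 58.7 and 28.9 CPM to 187, 187 and 187 (2.10 ± 0.19), and *Rfx3* from 24.8, 22.8 and 21.8 to 86.5, 92.9 and 90.9 (1.99 ± 0.13). *Rfx2*, the RFX factor of spermatids, was already at 400 to 446 CPM in pachytene spermatocytes. *Sox30* (0.98 ± 0.12) and *Crem* (0.90 ± 0.11), factors of post-meiotic transcription, also rose. Of 9 factors tested of a list of 12, 5 were higher and 2 lower in WT round spermatids, where 34.4% and 35.9% of all genes were, and 7 were lower in WT condensing spermatids, where 21.8% of all genes were. The list was not tested as a set. Their median log2 fold change of KO over WT was 0.03, 0.00 and 0.09 in the 3 stages.

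In WT spermatozoa *Rfx3* was at 468 and 342 CPM, against 65.2, 68.2 and 84.0 in WT condensing spermatids (2.53 ± 0.16, adjusted p = 1.69e-11), so that like *Dnah7a* it rose where nearly all axoneme genes fell. In the single KO library of spermatozoa it was at 100 CPM. The part of the macrophage RNA of these libraries, and of the source of their *Crisp1*, in its level was not tested.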
